A study of Mus musculus with 4 samples.

Results

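The genes described here are p53, its controllers and 22 of its target genes, together with 15 regulators of the G1 phase of the cell cycle, 40 genes in all among the 24428 gene rows of the count tables. They were listed by name as p53 targets, inhibitors of cyclin-dependent kinases (CDKs) and G1 cyclins and their partners, and all 40 were present. RNA-seq had been done on mouse embryonic stem cells of strain 129SvEv at passages 15 to 20, kept in medium with 15% serum and LIF, without any treatment. In every cell 1 allele of Smarca4, which encodes the motor subunit of BAF chromatin remodelling complexes, was wild-type and fused to GFP. The other, tagged with V5, carried either the G784E change (G784E, 2 libraries) or no change (WT, 2 libraries). The series' title calls G784E dominant-negative. The labels do not say whether replicates came from separate cultures or clones, and p-values therefore measure only how far these libraries differ, which can be technical.

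p53 is a transcription factor that is made continuously and degraded through the ubiquitin ligase Mdm2, itself a p53 target. When DNA damage or other stress stabilises p53, it raises genes that halt the cell cycle, start apoptosis or aid repair, among them Cdkn1a, which encodes the CDK inhibitor p21. Entry into S phase depends on D-type cyclins with Cdk4 and Cdk6, then E-type cyclins with Cdk2, which phosphorylate the pocket proteins Rb1, Rbl1 and Rbl2 and free E2F factors. Mouse embryonic stem cells are known for a short G1 phase, low D-type cyclin and high cyclin E activity.

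These start regions are printed because they belong to Cdkn1a, the classic arrest target, and Plk3, the target that rose. Promoter sequences were found for 29 of the 40 genes, in 38 windows of 250 bases upstream of an annotated start (RefSeq, GRCm38.p6). None was found for Perp, Pmaip1, Zmat3, Trp53inp1, Rrm2b, Xpc, Ddb2, Ccnd1, Ccnd2, Ccne2 and Rb1, and these genes were not searched. Sites outside the windows were not searched either. Sequences run 5′ to 3′, and capitals mark a full match to the p53 pattern. Such a match is a pair of p53 decamers RRRCWWGYYY at most 13 bases apart, with no mismatch allowed, searched on both strands. R stands for A or G, W for A or T and Y for C or T. The Cdkn1a windows lie at chr17:29090729-29090978 and chr17:29093519-29093768 on the plus strand and the Plk3 window at chr4:117133964-117134213 on the minus strand.
Cdkn1a, upstream start: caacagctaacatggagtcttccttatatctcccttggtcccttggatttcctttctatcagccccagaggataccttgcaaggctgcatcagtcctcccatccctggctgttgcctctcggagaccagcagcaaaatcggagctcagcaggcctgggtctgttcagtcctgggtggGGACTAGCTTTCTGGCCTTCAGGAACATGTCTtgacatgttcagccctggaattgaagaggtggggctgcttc
Cdkn1a, downstream start: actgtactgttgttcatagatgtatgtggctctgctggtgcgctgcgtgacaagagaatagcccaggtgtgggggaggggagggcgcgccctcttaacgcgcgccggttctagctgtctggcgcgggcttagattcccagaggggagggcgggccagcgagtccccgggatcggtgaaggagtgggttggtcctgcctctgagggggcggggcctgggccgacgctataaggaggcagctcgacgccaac
Plk3: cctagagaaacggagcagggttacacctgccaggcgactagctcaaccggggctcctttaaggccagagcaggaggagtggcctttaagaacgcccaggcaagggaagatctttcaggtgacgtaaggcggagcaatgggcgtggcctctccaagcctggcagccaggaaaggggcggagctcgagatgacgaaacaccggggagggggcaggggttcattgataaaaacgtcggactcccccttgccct
The upstream Cdkn1a window was the 1 member window with such a match (2.63% of 38). The last base of the match lay 42 bases before the start. The bases tgacatgttc, directly after it, miss the decamer pattern at 1 base and were not marked. The capitals thus show a match of letters and not the limits of a p53 site. Of all 32851 windows of the same length, 0.0639% held one. At least 1 p53 decamer was found in 9 member windows (23.7%), those of Trp53, Mdm2, Cdkn1a, Ccng1, Gadd45a, Sesn1, Bax, Aen and Ei24, and in 7.13% of all windows. An E2F motif (TTTCCCGC or TTTGGCGC on either strand) was found in windows of Cdk2 and Cdkn2a, 5.26% of member windows, and in 1.3% of all windows, and no member window held both it and a p53 decamer. These matches describe letters only, and no binding was measured.

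The libraries held 6226145 and 8895433 counts in genes for G784E and 7027108 and 10083442 for WT, so that 1 count stood for 0.102 to 0.164 CPM (counts scaled to a common library size by TMM). Olfactory receptor genes, typical of nasal neurons, summed to 685 and 282 CPM in G784E replicates 1 and 2, and to 684 and 193 CPM in WT replicates 1 and 2. Smarca4 had 3868 and 3580 CPM in G784E libraries, against 2423 and 2553 CPM in WT libraries, a log2 fold change of 0.58 (SE 0.19; edgeR, adjusted p = 0.119) that does not separate the alleles. Smarca4 passed in 3 of 12 alternatives, with DESeq2 (adjusted p = 0.00808), upper-quartile scaling (adjusted p = 0.0108) and limma-voom (adjusted p = 0.0300), in a range of 0.00808 to 0.764. A gene was called when the adjusted p of edgeR's quasi-likelihood test, over 15763 tested genes, was under 0.05. Of these genes 1.89% were called lower and 0.672% higher in G784E, 298 and 106 genes. Leaving out G784E replicate 1 gave 404 genes lower and 187 higher, and leaving out G784E replicate 2 gave 532 and 307. The counts were 156 lower and 29 higher when WT replicate 1 was left out, and 179 and 77 when WT replicate 2 was.

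Of the 40 genes, 39 passed the filter on low counts and were tested, and 3 were called, beside 2.56% of all tested genes. Ccnd2 (cyclin D2) and Perp (a membrane protein of p53-dependent apoptosis) were lower in G784E, and Plk3 (a Polo-like kinase of the stress response) was higher. The shares, 2 of 39 lower and 1 of 39 higher, stand beside the 1.89% and 0.672% of all tested genes, and nothing particular to the members is read from so few calls. Without WT replicate 2 no member was called. Without G784E replicate 1 or WT replicate 1 the calls were 1 lower (Ccnd2) and 1 higher (Plk3), and without G784E replicate 2 they were 5 lower and 3 higher. The median log2 fold change was 0.01 over the 39 genes and -0.0016 over all tested genes. Groups did not overlap, with both G784E libraries above or both below both WT libraries, for 12 higher and 9 lower members (30.8% and 23.1% of 39), against 19.4% of tested genes in each direction.

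**Figure D1:**
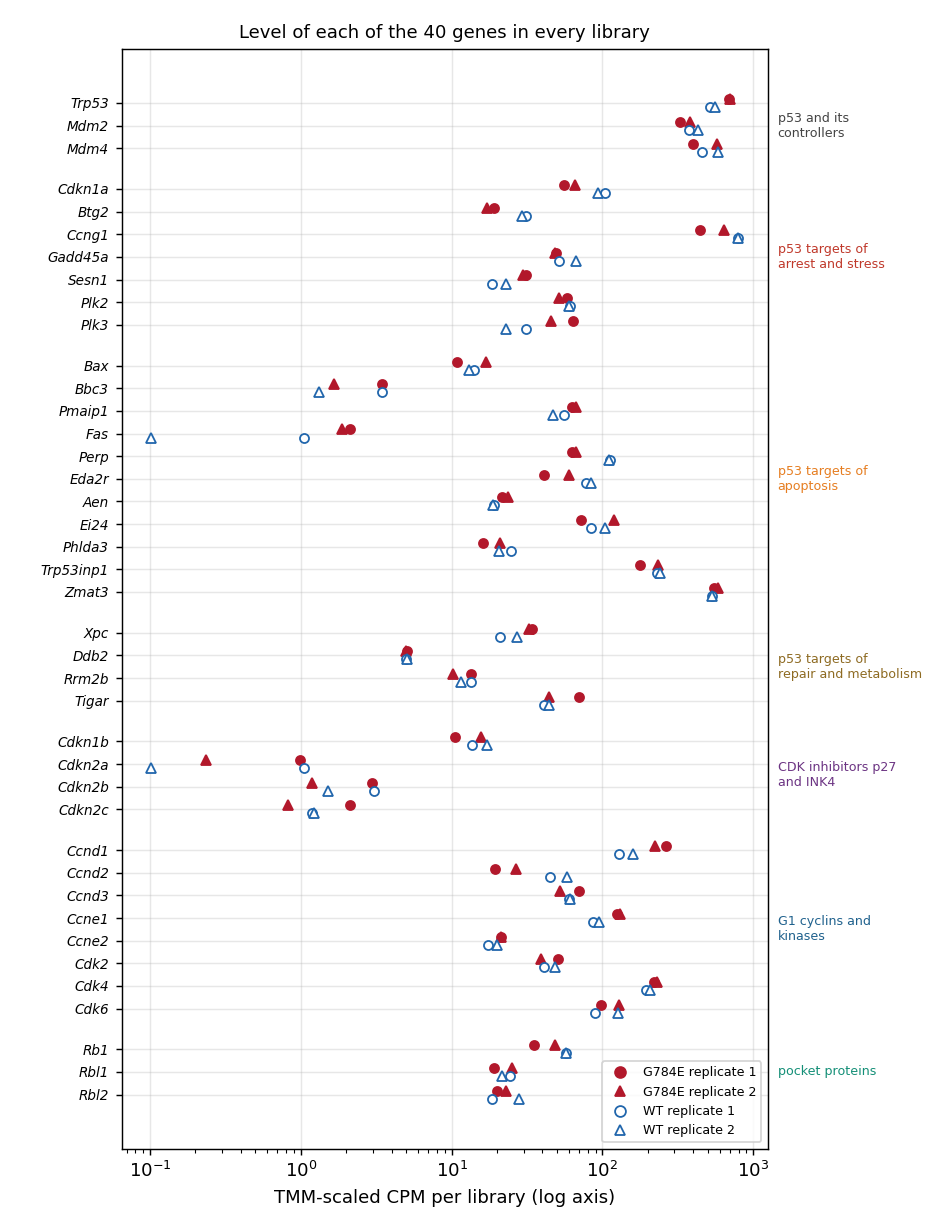
TMM-scaled CPM of the 40 genes (log axis) in each library, with G784E filled and WT open, and replicate 1 as circles and replicate 2 as triangles. Trp53 and Ccng1 stand among the highest, whereas Bbc3, Fas, Cdkn2a, Cdkn2b and Cdkn2c lie below 5 CPM.

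**Figure D2:**
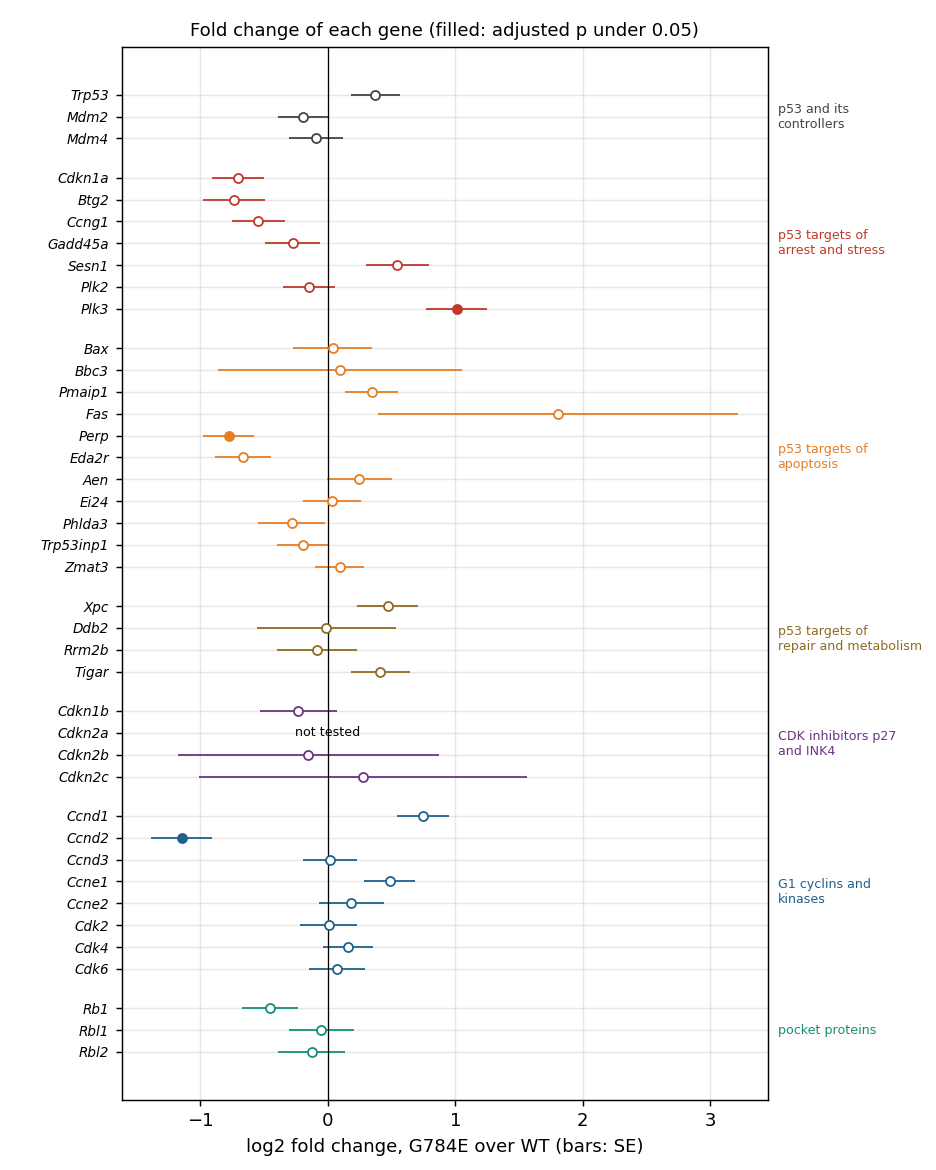
Log2 fold change (G784E over WT) of each gene with its SE, grouped by role. Filled points passed the test, namely Plk3 at 1.01, Perp at -0.78 and Ccnd2 at -1.15, and Cdkn2a was not tested.

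The RNA of p53 was abundant in both groups, and its protein was not measured. Trp53 stood at 689 and 696 CPM in G784E libraries, against 514 and 556 CPM in WT libraries. Both G784E libraries lay above both WT libraries, but the log2 fold change of 0.37 (SE 0.19; 95% interval -0.03 to 0.77) did not pass the test (edgeR, adjusted p = 0.493). Mdm2 had 328 and 379 CPM in G784E, against 377 and 432 CPM in WT, and the groups overlapped (-0.19, SE 0.20; adjusted p = 0.875). Mdm4, whose product binds p53 and blocks its activity, had 402 and 574 CPM in G784E and 457 and 583 CPM in WT, and likewise overlapped (-0.09, SE 0.21; adjusted p = 0.993). Within a library, the ratio of Mdm2 counts to Trp53 counts was 0.476 and 0.545 in G784E, against 0.733 and 0.776 in WT. The ratio was thus lower in both G784E libraries, a description of genes that was chosen after their values were seen and was not tested. Trp53 and Mdm4 have processed pseudogenes in the mouse annotation, as does Ccnd3. Reads not placed uniquely were left out of the counts, and the levels of these genes are therefore uncertain.

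Among the 7 targets of arrest and stress, 1 rose, none fell and 6 did not pass (median log2 fold change -0.27). Plk3 had 64.1 and 45.4 CPM in G784E libraries, against 31.3 and 23.05 CPM in WT libraries. Both G784E libraries were above both WT libraries, 54.7 ± 13.3 CPM in G784E and 27.2 ± 5.83 CPM in WT (SD, n = 2 each), a 2.01-fold rise (log2 fold change 1.01, SE 0.24; edgeR, adjusted p = 0.0193). The size was 1.04 between the libraries numbered 1 and 0.98 between those numbered 2. The call was lost without WT replicate 2 (0.80, edgeR, adjusted p = 0.317) and with upper-quartile scaling (1.01, adjusted p = 0.0587), and over 12 alternatives its adjusted p ran from 9.84e-06 to 0.317. Plk2, its relative, had 58.1 and 51.8 CPM in G784E and 61.4 and 60.2 CPM in WT (-0.15, SE 0.21; adjusted p = 0.949). The exons of Plk3 overlap Tctex1d4 on the opposite strand over 3.32% of their length, and Tctex1d4 itself had at most 4 counts in a library.

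Cdkn1a and Btg2, the antiproliferative targets, both lay lower in G784E without passing the test. Cdkn1a had 55.3 and 65.6 CPM in G784E libraries, against 103 and 93.9 CPM in WT libraries. The groups did not overlap, at a log2 fold change of -0.70 (SE 0.21; 95% interval -1.13 to -0.28; edgeR, adjusted p = 0.0758). It passed with upper-quartile scaling (adjusted p = 0.0385), the stricter filter (adjusted p = 0.0481), limma-voom (adjusted p = 0.0251) and without G784E replicate 2 (-0.81, adjusted p = 0.0171), within a range of 0.0171 to 0.609 over 12 alternatives. Btg2 had 19.1 and 17.2 CPM in G784E, against 31.0 and 29.4 CPM in WT (-0.74, SE 0.25; adjusted p = 0.144).

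Ccng1 (cyclin G1, which feeds back on p53) had 443 and 645 CPM in G784E, against 794 and 795 CPM in WT. The WT libraries were nearly equal and the G784E libraries wide apart, and the log2 fold change of -0.55 (SE 0.21; edgeR, adjusted p = 0.237) was -0.28 without G784E replicate 1 and -0.82, past the threshold, without G784E replicate 2 (adjusted p = 0.0401). In the other direction, Sesn1 (sestrin 1, an inhibitor of mTORC1) had 31.1 and 29.8 CPM in G784E and 18.6 and 22.9 CPM in WT (0.55, SE 0.24; adjusted p = 0.363). Exons of Gadd45a, a growth arrest and DNA repair factor, overlap E230016M11Rik on the opposite strand over 19.1% of their length. Gadd45a had 48.9 and 48.6 CPM in G784E and 51.2 and 66.6 CPM in WT (-0.27, SE 0.21, edgeR, adjusted p = 0.77). Thus 5 of the 7 arrest genes had both G784E libraries below both WT libraries and 2 had both above, 71.4% and 28.6%, against 19.4% of tested genes each way.

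The 11 apoptosis targets held 1 gene that fell and 10 that did not pass, and their log2 fold changes had a median of 0.04. Perp had 63.3 and 66.9 CPM in G784E libraries, against 112 and 111 CPM in WT libraries. The groups did not overlap and their libraries were close to each other, 65.1 ± 2.53 CPM in G784E and 112 ± 0.828 CPM in WT (SD, n = 2 each), a 1.71-fold fall (log2 fold change -0.78, SE 0.20; edgeR, adjusted p = 0.0345). It lost its call with RLE scaling (-0.77, edgeR, adjusted p = 0.0552) and when G784E replicate 1 (-0.72, 0.0524), WT replicate 1 (-0.77, 0.291) or WT replicate 2 (-0.78, 0.188) was left out. Over 12 alternatives its adjusted p ran from 0.00765 to 0.291 and its log2 fold change from -0.81 to -0.72.

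Eda2r, a member of the TNF receptor family, had 41.2 and 60.3 CPM in G784E, against 78.2 and 83.7 CPM in WT (-0.67, SE 0.22; edgeR, adjusted p = 0.133). It passed with limma-voom (-0.68, adjusted p = 0.0412) and without G784E replicate 2 (-0.95, edgeR, adjusted p = 0.00346), in a range of 0.00346 to 0.517 over 12 alternatives. Without G784E replicate 1 its log2 fold change was -0.41 (edgeR, adjusted p = 0.444). The BCL2 family genes Pmaip1, Bax and Bbc3, whose products open the mitochondrial route to apoptosis, did not pass. Pmaip1 (Noxa) had 63.3 and 67.0 CPM in G784E and 55.5 and 47.3 CPM in WT (0.34, SE 0.21; adjusted p = 0.607). Bax had 10.8 and 16.8 CPM in G784E and 14.1 and 12.996 CPM in WT, with overlapping groups (0.04, SE 0.31; adjusted p = 1). Exons of Bax overlap Gm45808 on the same strand over 12.2% of their length. Bbc3 (Puma) was near the detection limit, with 21 and 14 counts in G784E and 26 and 13 in WT. Fas, the death receptor, had 13 and 16 counts in G784E and 8 and 1 in WT (adjusted p = 0.77), too few for a fold to be given.

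Of the other apoptosis targets, Zmat3, an RNA-binding tumour suppressor, stood at 552 and 589 CPM in G784E and 534 and 535 CPM in WT (0.09, SE 0.19; edgeR, adjusted p = 0.986). Trp53inp1, which promotes p53 activity and autophagy, had 178 and 233 CPM in G784E and 229 and 241 CPM in WT (-0.19, SE 0.20; adjusted p = 0.88). The log2 fold changes of Aen (an exonuclease), Ei24 (a protein of the endoplasmic reticulum) and Phlda3 (an inhibitor of Akt) were 0.25 (SE 0.25), 0.03 (SE 0.23) and -0.28 (SE 0.26). None of these passed.

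The 4 targets of repair and metabolism did not pass in edgeR, DESeq2 or limma-voom, and 0 had an unadjusted p under 0.05 in edgeR (median 0.20, or 0.03 without G784E replicate 1 and 0.33 without G784E replicate 2). Xpc, the damage sensor of nucleotide excision repair, had 34.4 and 32.6 CPM in G784E, against 21.0 and 27.2 CPM in WT (0.47, SE 0.24; edgeR, adjusted p = 0.474). Tigar, which lowers glycolysis, had 70.2 and 44.5 CPM in G784E and 41.2 and 44.6 CPM in WT, so that its difference (0.41, SE 0.23; adjusted p = 0.544) lay in G784E replicate 1 alone. It was 0.07 without that library and 0.73 without G784E replicate 2 (adjusted p = 0.0293). Ddb2, the partner of Xpc in damage recognition, stayed at 5.07 and 4.95 CPM in G784E and 5.02 and 5.08 CPM in WT (-0.01, SE 0.54). These levels rest on 31 and 42 counts in G784E and 38 and 50 in WT. Exons of Ddb2 overlap the opposite-strand gene Acp2 over 23.8% of their length. Rrm2b, the p53-inducible ribonucleotide reductase subunit, had 13.4 and 10.2 CPM in G784E and 13.5 and 11.6 CPM in WT (-0.09, SE 0.32).

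Of the D-type cyclins, which start the G1 programme, Ccnd2 fell, whereas Ccnd1 was higher at an adjusted p just outside the threshold and Ccnd3 overlapped. Ccnd2 had 19.5 and 26.7 CPM in G784E libraries, against 44.8 and 57.9 CPM in WT libraries. The groups did not overlap, 23.1 ± 5.14 CPM in G784E and 51.3 ± 9.27 CPM in WT (SD, n = 2 each), a 2.21-fold fall (log2 fold change -1.15, SE 0.24; edgeR, adjusted p = 0.00681). It was -1.20 between the libraries numbered 1 and -1.11 between those numbered 2. The call held in 11 of 12 alternatives and was lost without WT replicate 2 (-0.95, adjusted p = 0.166), the upper end of a range that began at 2.43e-05.

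Ccnd1 (cyclin D1) had 262 and 223 CPM in G784E libraries, against 129 and 160 CPM in WT libraries. Both G784E libraries were higher, 1.68-fold on the fitted scale (log2 fold change 0.75, SE 0.20; 95% interval 0.32 to 1.17), and the adjusted p of 0.0507 lay just outside the edgeR threshold. Ccnd1 passed with DESeq2 (adjusted p = 0.00975), limma-voom (adjusted p = 0.0061), upper-quartile scaling (adjusted p = 0.0187), the stricter filter (adjusted p = 0.0354), a robust prior (adjusted p = 0.0409) and without G784E replicate 2 (0.88, adjusted p = 0.00392), and the range over 12 alternatives reached 0.652 (0.60, without WT replicate 1). Ccnd3 (cyclin D3) overlapped between the groups, at 70.0 and 52.5 CPM in G784E and 60.1 and 60.6 CPM in WT (0.02, SE 0.21; adjusted p = 1).

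The D-type cyclins were also compared per length. The length was that of all annotated exons of a gene merged, 4.709 kb for Ccnd1, 8.775 kb for Ccnd3 and 9.409 kb for Ccnd2. In CPM per kb of exon, Ccnd1 stood at 55.7 and 47.5 in G784E and 27.5 and 34.0 in WT, Ccnd3 at 7.98 and 5.99 in G784E and 6.85 and 6.91 in WT, and Ccnd2 at 2.07 and 2.84 in G784E and 4.76 and 6.15 in WT. On these lengths Ccnd1 was the highest and Ccnd2 the lowest D-type cyclin in all 4 libraries. The transcripts present and the annotation behind the counts are not known, so this order and its distances depend on the lengths used. The ratio of Ccnd1 counts to Ccnd2 counts was 13.5 and 8.36 in G784E libraries and 2.89 and 2.77 in WT libraries. This pair was chosen after its values were seen, and the ratio was not tested. In the annotation (GRCm38), Ccnd1 exons overlap the gene LTO1 on the opposite strand over 23.4% of their length. LTO1, listed as Oraov1, had 5.07 and 5.18 CPM in G784E and 9.38 and 6.50 CPM in WT. How reads in the overlap were counted is not known, and their part in the Ccnd1 counts was not tested. Ccnd2 exons overlap the antisense gene 9330179D12Rik over 3.91%, which had at most 18 counts in a library.

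**Figure D3:**
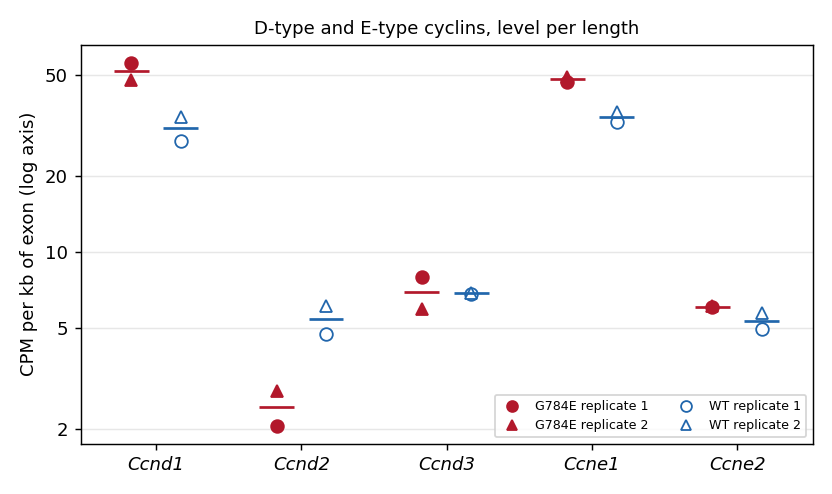
Level of the D-type and E-type cyclin genes in CPM per kb of exon (log axis), with G784E filled and left of WT, 1 point per library and a line at the mean of each group. On lengths of all annotated exons merged, Ccnd1 and Ccne1 lie highest. Ccnd2 has both G784E libraries (2.07 and 2.84) below both WT libraries (4.76 and 6.15).

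Of the E-type cyclins, Ccne1 was the more abundant per length, at 46.8 and 49.0 CPM per kb in G784E and 32.6 and 35.7 in WT, against 6.09 and 6.10 in G784E and 4.95 and 5.75 in WT for Ccne2. In CPM, Ccne1 had 125 and 131 in G784E libraries, against 86.9 and 95.03 in WT libraries. Its groups did not overlap, but the log2 fold change of 0.49 (SE 0.20; edgeR, adjusted p = 0.293) did not pass, and nor did that of Ccne2 (0.19, SE 0.26; adjusted p = 0.947). None of the kinases passed. Cdk4 had 219 and 229 CPM in G784E and 196 and 206 CPM in WT (0.16, SE 0.20; adjusted p = 0.924), Cdk6 had 97.2 and 128 CPM in G784E and 88.7 and 126 CPM in WT (0.07, SE 0.22), and Cdk2 had 51.1 and 39.0 CPM in G784E and 40.8 and 48.3 CPM in WT (0.01, SE 0.22). Exons of Cdk4, Ccne2 and Ccnd3 overlap opposite-strand genes over 19.7%, 17.4% and 4.11% of their length (Tspan31, Ints8 and Bysl). In all, 1 of the 8 G1 cyclins and kinases fell, none rose and 7 did not pass (median 0.11).

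Inhibitors of the INK4 class, which bind Cdk4 and Cdk6, were near the detection limit in both groups. Cdkn2a, which encodes p16 and p19ARF, had 6 and 2 counts in G784E and 8 and 1 in WT and was not tested, at levels of 0.982 and 0.236 CPM in G784E and 1.06 and 0.102 CPM in WT. Cdkn2b had 18 and 10 counts in G784E and 23 and 15 in WT (log2 fold change -0.15, SE 1.02), and Cdkn2c had 13 and 7 in G784E and 9 and 12 in WT (0.28, SE 1.29). Differences of these genes were not detectable at this depth, and replicate 1, which had the higher level of olfactory receptor reads, had the higher CPM of Cdkn2a and Cdkn2b in both groups; the part of such reads was not tested. Cdkn1b, which encodes the CDK inhibitor p27, had 10.5 and 15.7 CPM in G784E and 13.7 and 17.1 CPM in WT (-0.23, SE 0.30; edgeR, adjusted p = 0.937).

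The pocket proteins, which hold E2F factors in check, did not pass either in these tools, and 0 had an unadjusted p under 0.05 in edgeR (median -0.13). Rb1 had 35.02 and 48.6 CPM in G784E, against 57.3 and 57.5 CPM in WT, lower in both G784E libraries (-0.45, SE 0.22; edgeR, adjusted p = 0.442). Leaving out G784E replicate 1 gave Rb1 a log2 fold change of -0.22 and leaving out G784E replicate 2 gave -0.69, and it passed in neither fit. Rbl1 (p107) had 19.1 and 25.0 CPM in G784E and 24.4 and 21.5 CPM in WT, and Rbl2 (p130) had 20.0 and 22.9 CPM in G784E and 18.6 and 28.0 CPM in WT, with overlapping groups in both cases.

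Set side by side, the 18 arrest and apoptosis targets and the 14 tested G1 regulators both had medians near 0. The targets had a median log2 fold change of -0.06, with 1 gene higher and 1 lower past the threshold, and the G1 regulators a median of 0.01, with 1 lower. With a library left out, the medians ran from -0.28 to -0.05 for the targets and from 0.01 to 0.18 for the G1 regulators. The median of the G1 regulators turned in sign with no filter (-0.0251), limma-voom (-0.0073) and without Rn45s (-0.0214), and was above 0 in the other alternatives. Of the targets, 6 lay higher and 7 lower with no overlap between groups (33.3% and 38.9%), and of the G1 regulators 4 higher and 2 lower (28.6% and 14.3%), against 19.4% of tested genes in each direction. The summed level of the targets was 1744 and 2103 CPM in G784E and 2247 and 2267 CPM in WT, and that of the G1 regulators was 955 and 965 CPM in G784E and 783 and 901 CPM in WT. Ccng1 made up most of the difference between the target sums, at 443 and 645 CPM in G784E and 794 and 795 CPM in WT.

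Further genes of the pathway were read from lists. Of 25 tested other p53 targets, 1 fell, none rose and 24 did not pass (median -0.23), and DESeq2 called 2 lower. The gene that fell by edgeR was Ptpn14, which encodes a phosphatase that restrains YAP, with 110 and 139 CPM in G784E libraries, against 285 and 281 CPM in WT libraries. Both G784E libraries were far below both WT libraries (log2 fold change -1.18, SE 0.20; edgeR, adjusted p = 0.000925), and the call held in all 12 alternatives. On this list 11 genes lay lower and 4 higher without overlap, 44% and 16%, against 19.4% of tested genes each way. None of the 20 kinases, cofactors and relatives that act upstream of or beside p53 passed (median 0.16, with 2 genes higher and 0 lower at an unadjusted p under 0.05 in edgeR), and DESeq2 and limma-voom called 0.

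Genes that carry out DNA replication and are targets of E2F lay mostly above 0 without passing. Of 24 tested, 18 had a log2 fold change above 0 and 13 had both G784E libraries above both WT libraries (54.2%), whereas 0 had both below, and the background is 19.4% each way. None passed the adjusted threshold of edgeR or DESeq2, and limma-voom called 1 higher. In edgeR 8 were higher and 0 lower at an unadjusted p under 0.05, against 5.14% and 6.48% of all tested genes, and the median was 0.24 (0.12 to 0.33 with a library left out). Examples chosen after their values were seen are the replication licensing factor gene Cdt1, with 127 and 105 CPM in G784E and 70.9 and 77.5 CPM in WT (0.64, SE 0.20; adjusted p = 0.119), and the helicase subunit gene Mcm5, with 176 and 191 CPM in G784E and 114 and 143 CPM in WT (0.51, SE 0.20; adjusted p = 0.267). The 23 genes of G2 and M phase had a median of -0.02 and the 23 other genes of G1 and S phase control a median of -0.01, and none passed in edgeR, DESeq2 or limma-voom. At an unadjusted p under 0.05 in edgeR, 1 G2 and M phase gene was higher and 0 lower, and 1 of the G1 and S phase control genes was higher and 2 lower.

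**Figure D4:**
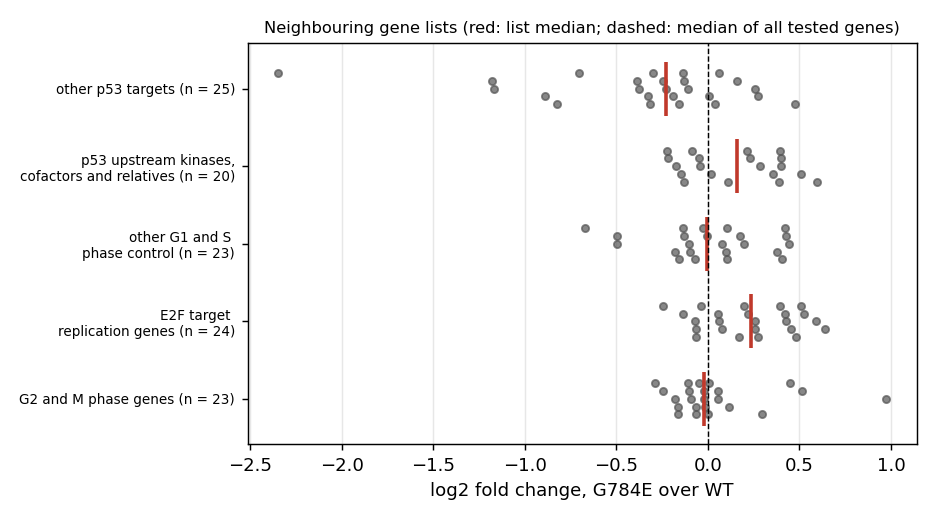
Log2 fold change (G784E over WT) of each tested gene in 5 neighbouring lists, 1 point per gene, with the list median in red and the median of all tested genes dashed. The E2F target list is centred at 0.24 and the other p53 targets at -0.23, whereas G2 and M phase genes are centred at -0.02.

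Markers of other cells moved beside these results. The 12 primitive endoderm markers, 10 of which fell and 2 did not pass, summed to 588 and 596 CPM in G784E libraries, against 5296 and 5596 CPM in WT libraries, and no marker was at 0 in a library. Of 10 trophoblast markers, 2 (Krt8 and Krt18) fell by edgeR, 1 by DESeq2, and the list summed to 80.2 and 66.2 CPM in G784E and 113 and 111 CPM in WT. The list did not move as a whole, with 6 log2 fold changes below 0 and 4 above. Krt18 alone had 10.5 and 10.8 CPM in G784E and 39.2 and 42.5 CPM in WT. Tfap2c lay the other way, at 32.4 and 30.3 CPM in G784E and 19.7 and 20.2 CPM in WT, without passing. The 14 feeder fibroblast markers overlapped, at 132 and 133 CPM in G784E and 151 and 113 CPM in WT, and none of 11 tested passed (edgeR, 0 also at an unadjusted p under 0.05). The 12 pluripotent stem cell markers, at 3625 and 3799 CPM in G784E and 3164 and 3582 CPM in WT, were present in every library, and none passed (1 higher and 0 lower unadjusted). Their sums were higher in both G784E libraries. On this list 6 genes lay higher and 2 lower without overlap, 50% and 16.7%, against 19.4% of tested genes each way. Endoderm markers thus stood lower in the same libraries as Ccnd2, Perp and Ptpn14, and their part in those results was not tested. In bulk RNA, fewer cells of a type and less RNA per cell cannot be told apart.

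**Figure D5:**
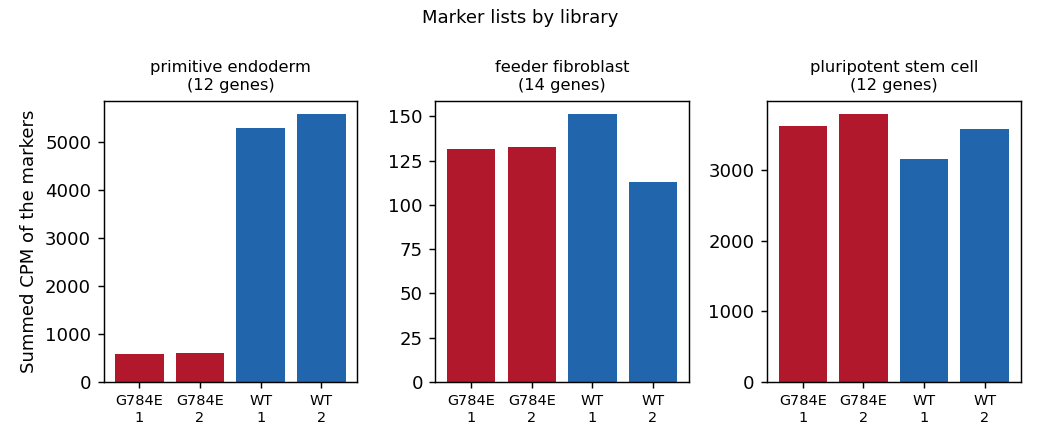
Summed CPM of 3 marker lists in each library, with G784E in red and left of WT in blue. The primitive endoderm sum is 588 and 596 CPM in G784E and 5296 and 5596 CPM in WT, whereas the fibroblast sums overlap between the groups. The stem cell sums are higher in both G784E libraries, at 3625 and 3799 CPM against 3164 and 3582 CPM in WT.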

How the data were processed

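Each library came as a table of raw read counts by gene symbol, as the authors deposited it. The tools named are HTSeq, DESeq2, Bowtie2 2.1.0 and CASAVA 1.8.2, and the build is mm9, per the submitters' processing notes. Strand setting, counting mode and annotation: not given in the sources used here. Reads of overlapping genes on opposite strands therefore cannot be told apart. Summary rows, which held 83.3% to 88.7% of the reads (not uniquely placed reads alone 55.4% to 61.8%), were left out.

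Counts were tested with edgeR 4.0.16 (R 4.3.3; TMM, filterByExpr with minimum count 10 and total 15, group alone, 2 residual degrees of freedom, Benjamini-Hochberg over 15763 genes, threshold 0.05). DESeq2 1.42.0, limma-voom (limma 3.58.1), other scalings, filters and priors, and leaving out Rn45s or each library were 12 alternatives. A fit with replicate number as a block brought them to 13. Ranges and counts given over 12 alternatives leave out the block. CPM values are TMM-scaled, and the SE is the size of the log2 fold change divided by the square root of F. Exon lengths and overlaps came from GENCODE M21 (GRCm38), matched by symbol, and no coordinates of mm9 are given. Of 206 listed symbols all were found, 1 under an older symbol. All 40 members are named, as are Smarca4 and called genes of the other pathway lists; the members and lists were chosen with earlier results of these data known. No library was a copy of another (chi-square per degree of freedom 15.4 between G784E and 9.22 between WT libraries). In counts simulated for this comparison (14839 genes fitted), edgeR called 32.3% of 96 genes changed 2-fold and 69.8% of 96 changed 4-fold, with 7 false calls. The simulated libraries were drawn independently, whereas deviations of same-numbered real libraries correlated at 0.49. These shares may therefore not hold for the real data. The 95% intervals were taken from the SE and a t quantile, so they include the fitted spread between libraries. The tests and this quantile used edgeR's total degrees of freedom, which add a share borrowed from all tested genes to the 2 residual ones. The intervals therefore do not rest on the libraries of 1 gene alone.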

Additional observations from a re-analysis of the deposited data

How the results depend on the processing

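Over 13 alternatives and 41 named genes, 466 values kept direction and side of the threshold, 7 lost a call, 24 gained one and 30 turned in sign, the last for genes that did not pass in either case. The cause was not tested. Genes called lower and higher were 658 and 546 with the replicate block and 186 higher with limma-voom. Members called lower were 1 with RLE scaling, 4 with limma-voom and 5 with the block, and members called higher were 2 each with the stricter filter, DESeq2, limma-voom and the robust prior, and 4 with the block. Without 1 library, genes lower ran from 156 to 532, genes higher from 29 to 307, members lower from 0 to 5 and members higher from 0 to 3. List medians then ran from -0.28 to 0.16 (p53 and its controllers), -0.45 to -0.16 (arrest), -0.31 to 0.16 (apoptosis), -0.52 to 0.39 (CDK inhibitors), -0.39 to -0.0150 (pocket proteins), -0.28 to -0.0484 (arrest and apoptosis together), 0.03 to 0.33 (repair and metabolism), 0.05 to 0.25 (G1 cyclins and kinases) and 0.04 to 0.19 (kinases, cofactors and relatives upstream of or beside p53).

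The labels give both groups replicates 1 and 2 but no shared day or batch. Deviations of same-numbered libraries correlated at 0.49 over genes, with 2 pairs. In the fit with the replicate block Trp53 (0.37, adjusted p = 0.0171), Ccne1 (0.49, adjusted p = 0.0214), Ccnd1 (0.75, adjusted p = 0.000169), Cdkn1a (-0.70, adjusted p = 0.0028), Ccng1 (-0.57, adjusted p = 0.000871) Eda2r (-0.69, adjusted p = 0.00661) and Smarca4 (0.58, adjusted p = 1.59e-05) were called by edgeR besides Plk3, Perp and Ccnd2.

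Turned in sign were Ccnd3 and Cdk2 with no filter (-0.0251 and -0.0347), limma-voom (-0.0028 and -0.0119) and without Rn45s (-0.0174 and -0.0254). Without 1 library the log2 fold change ran from -0.35 to 0.16 for Mdm4, -0.31 to 0.33 for Bax, -0.50 to 0.93 for Bbc3, -0.36 to 0.37 for Ei24, -0.38 to 0.0029 for Trp53inp1, -0.0194 to 0.0279 for Ddb2, -0.27 to 0.12 for Rrm2b, -0.54 to 0.0410 for Cdkn1b, -0.92 to 0.42 for Cdkn2b, -0.52 to 0.83 for Cdkn2c, -0.18 to 0.24 for Ccnd3, -0.18 to 0.22 for Cdk2, -0.16 to 0.35 for Cdk6, -0.24 to 0.14 for Rbl1 and -0.39 to 0.20 for Rbl2. In those fits the remaining library of a group takes its spread from the other group. In CPM, 3 counts were worth 0.305 to 0.491. Cdkn2a lay below that level in G784E replicate 2 and WT replicate 2, and Fas in WT replicate 2.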
